A study of Mus musculus with 4 samples.

Results

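The genes described here encode the proteins that store and silence maternal messenger RNA in the mouse oocyte. They are Zar1, Zar1l, Ybx2, Ddx6, Lsm14a, Lsm14b, Eif4enif1, Eif4e1b and Patl2. They were chosen by symbol in the deposited transcript table, which gave 9 genes and 40 RefSeq transcript models out of 17945 genes and 48574 models. The samples were germinal vesicle oocytes, which are arrested in meiotic prophase, from female mice at postnatal day 20. Their follicles had not been primed with hormone, and milrinone in the medium kept the oocytes from resuming meiosis. Live oocytes were sorted from bright-field images by a deep learning pipeline into surrounded nucleolus (SN) oocytes, in which condensed chromatin rings the nucleolus, and non-surrounded nucleolus (NSN) oocytes, in which it does not. Each class had 15 oocytes and 2 libraries, named here by the replicate number in the labels. The labels give no strain, do not say how the oocytes of a class were divided between its libraries, and name no separate animals behind the replicates. The p-values below therefore reflect only how far libraries of 1 class differ, and that spread may be technical. The class of each oocyte is a prediction from its image.

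A growing oocyte makes messenger RNA that it will translate only later, during meiotic maturation and after fertilisation, when its own transcription is off. The waiting messages are packed into particles by RNA-binding proteins: the zinc finger proteins ZAR1 and ZAR1L bind their 3′ untranslated regions, and the Y-box protein YBX2 (MSY2) coats them along their length. The DEAD-box helicase DDX6, its partners LSM14A, LSM14B and PATL2, the eIF4E transporter (gene Eif4enif1) and the oocyte form of the cap-binding protein (gene Eif4e1b) hold the messages away from the ribosome. In mice, loss of Zar1, Ybx2 or Lsm14b harms oocyte maturation or the early embryo. Oocytes enter the SN class late in growth, when transcription stops, so the comparison of SN with NSN oocytes asks whether the stock of messages for this machinery differs between the classes.

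The library totals were 37023401 and 36922573 estimated counts in SN replicates 1 and 2, against 32307398 and 32541920 in NSN replicates 1 and 2. Oocyte identity was clear in every library: the summed level of 10 oocyte markers was 25540 and 24141 CPM (counts scaled to the library total) in SN and 24359 and 23338 CPM in NSN. The summed level of 13 granulosa and cumulus markers was 77.2 and 89.9 CPM in SN and 100.3 and 87.9 CPM in NSN. Of those markers, 4 were at 0 in at least 1 library, among them Amh, a granulosa hormone, with 0 and 7 counts in SN and 11 and 2 counts in NSN. Inha, which granulosa cells also make, was at 3.32 and 6.55 CPM in SN and 11.7 and 4.33 CPM in NSN. Cyp19a1 and Nr5a2 were the largest parts of the granulosa and cumulus sum in every library. Cyp19a1 was at 41.8 and 44.6 CPM in SN and 42.3 and 44.5 CPM in NSN. Nr5a2 was at 20.2 and 25.2 CPM in SN and 24.9 and 26.6 CPM in NSN. Gja1 was at 0.459 and 1.46 CPM in SN and 4.64 and 0.891 CPM in NSN. Amh, Inha, Inhbb, Fst, Hsd17b1, Foxl2, Fshr, Amhr2 and Gja1 were each highest in NSN replicate 1. Inhba, Cyp19a1, Kitl and Nr5a2 were highest in other libraries. The part of granulosa and cumulus cells in the results below was not tested. All 10 oocyte markers had a log2 fold change of SN over NSN above 0, and 0 of them passed the edgeR test described below. Their median log2 was 0.11 at a median abundance of 10.8 on the log2 CPM scale, and of all genes above 10 on that scale 98.4% had a log2 above 0, with a median of 0.26. The 2 with the smallest p were Oosp1, an oocyte-secreted protein (log2 0.44), and Zp3, a coat protein of the zona pellucida (log2 0.30). Of the 13 granulosa and cumulus markers 9 could be tested, 4 with a log2 above 0, and 0 passed. Fst and Hsd17b1 had the smallest p there, at 0.270 and 0.433 CPM in SN against 1.45 and 0.461 CPM in NSN for Fst, and 0.567 and 0.650 CPM in SN against 1.76 and 0.615 CPM in NSN for Hsd17b1. RNA was captured by its poly(A) tail, so a longer tail and a higher level cannot be told apart, and likewise less RNA per oocyte and fewer oocytes in a library.

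Promoter windows are shown for the most abundant storage genes, Zar1 and Zar1l, and for Lsm14b, because Zar1l and Lsm14b had the smallest p-values of the set. The RefSeq table of GRCm38.p6 held windows for 7 of the 9 genes, each reaching from 250 bases before to 50 bases after an annotated start. Capitals mark matches, on either strand, to the E-box sequence CAGGTG, to TAATTG and TAATTA, which the oocyte homeobox factor NOBOX binds, and to the TATA-like sequence TATTTAA. Each window is written 5′ to 3′ along the strand of its gene.
Zar1, chr5:72581035-72581334, minus strand: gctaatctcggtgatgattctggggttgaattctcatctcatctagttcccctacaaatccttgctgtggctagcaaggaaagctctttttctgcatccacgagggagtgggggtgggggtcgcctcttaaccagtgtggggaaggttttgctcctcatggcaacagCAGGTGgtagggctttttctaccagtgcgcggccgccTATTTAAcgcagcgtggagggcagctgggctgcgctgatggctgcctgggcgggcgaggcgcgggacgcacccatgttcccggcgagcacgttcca
Zar1l, chr5:150518110-150518409, minus strand: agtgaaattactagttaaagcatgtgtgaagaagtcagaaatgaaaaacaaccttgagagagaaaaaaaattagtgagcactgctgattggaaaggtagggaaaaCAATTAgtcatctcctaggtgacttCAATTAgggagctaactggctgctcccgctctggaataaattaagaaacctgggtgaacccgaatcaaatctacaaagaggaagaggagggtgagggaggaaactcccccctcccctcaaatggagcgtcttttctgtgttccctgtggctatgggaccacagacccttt
Lsm14b, chr2:180024737-180025036, plus strand: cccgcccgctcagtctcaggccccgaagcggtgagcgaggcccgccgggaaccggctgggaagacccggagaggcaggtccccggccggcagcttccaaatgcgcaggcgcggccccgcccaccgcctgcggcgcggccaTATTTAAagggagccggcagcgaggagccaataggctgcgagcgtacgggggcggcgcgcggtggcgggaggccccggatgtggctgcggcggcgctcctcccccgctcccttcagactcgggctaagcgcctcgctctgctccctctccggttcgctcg

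The Zar1 window held 1 CAGGTG and 1 TATTTAA, the Zar1l window held 2 copies of TAATTG, read on the other strand as CAATTA, and the Lsm14b window held 1 TATTTAA. The 3 windows differed in base composition, with 58.7% G and C for Zar1, 44.3% for Zar1l and 74.3% for Lsm14b. Of all 32851 windows in the table, 20.2% held CAGGTG, 8.0% TAATTG, 5.29% TAATTA and 4.51% TATTTAA. These matches describe the letters in the windows and say nothing about binding in these oocytes.

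The storage genes fell into 3 tiers of level. Levels between genes are given in TPM, the share of transcripts corrected for transcript length, summed over the models of a gene. The upper tier held Zar1l, at 838.1 TPM averaged over the 4 libraries, and Zar1, at 820.3 TPM. They ranked 214 and 224 among the 17923 genes with a TPM above 0. Together Zar1 and Zar1l made up 79.9% and 76.3% of the summed TPM of the 9 genes in SN and 75.7% and 72.4% in NSN.

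The middle tier held the cap and repressor proteins. Eif4e1b averaged 125.8 TPM, Eif4enif1 118.2 TPM, Lsm14a 96.2 TPM, Ybx2 64.4 TPM, Lsm14b 62.2 TPM and Patl2 49.6 TPM. Ddx6 stood alone at the bottom with 4.78 TPM, at rank 7301. In that order, all 4 libraries of Zar1 lay above those of Eif4e1b, all 4 of Lsm14a above those of Ybx2, and all 4 of Patl2 above those of Ddx6. The other neighbours overlapped: Zar1l with Zar1, Eif4e1b with Eif4enif1, Eif4enif1 with Lsm14a, Ybx2 with Lsm14b, and Lsm14b with Patl2. The mean of Zar1 was 6.52 times that of Eif4e1b, and the mean of Patl2 was 10.4 times that of Ddx6.

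**Figure D1:**
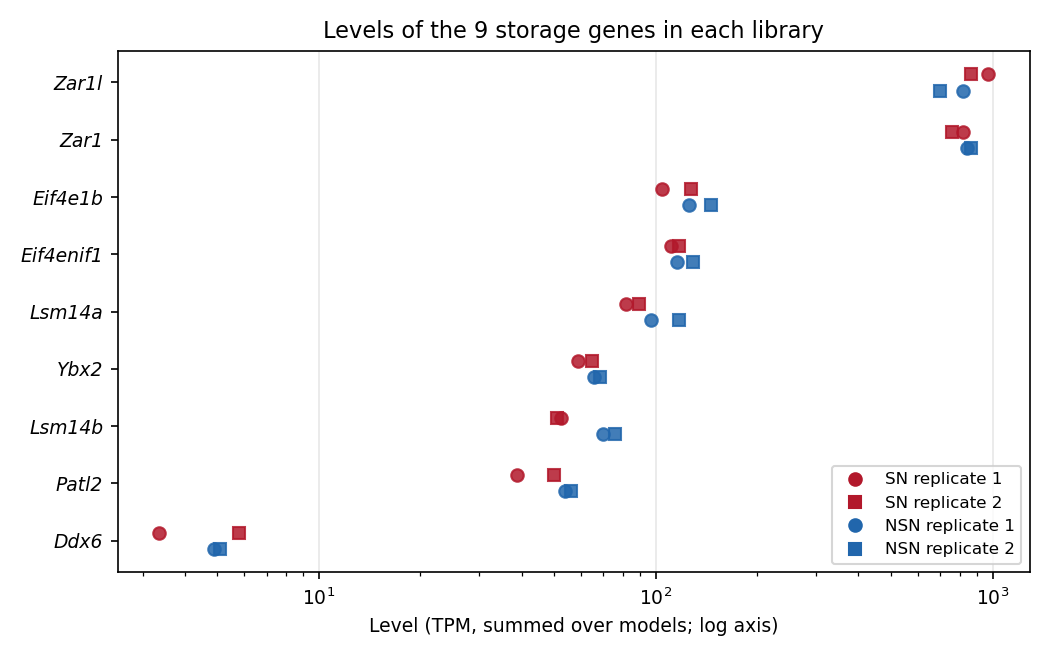
Level of each storage gene in TPM, summed over its models, on a log axis, with 1 point per library (SN above, NSN below). Zar1l and Zar1 lie between 698.1 and 971.2 TPM in every library, and Ddx6 between 3.36 and 5.78 TPM.

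No storage gene passed the test between SN and NSN. The edgeR quasi-likelihood test called 0 of the 9 genes at an adjusted p of 0.05, against 0% of all 13426 genes tested. DESeq2 gave an adjusted p to 3 of them, Zar1, Zar1l and Eif4enif1, and called 1, Zar1l, against 6.99% of the 672 genes to which it gave one. At an unadjusted p under 0.05 there were 2 storage genes, against 7.48% of all genes: Zar1l with a higher estimate in SN (4.01% of all genes) and Lsm14b with a lower one (3.46% of all genes). Of the 9 genes, 5 had a log2 fold change of SN over NSN above 0, and the set's median was 0.04, against a median of -0.01 and 48% above 0 for all genes tested. Both libraries of one class lay above both of the other for 4 of the 9 genes, against 39% of all genes. Of these, 2 were higher in SN (18.3% of all genes) and 2 were lower in SN (20.7% of all genes).

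Across all genes the difference between the classes moved with abundance. Genes between 8 and 10 on the log2 CPM scale had a median log2 fold change of 0.13 with 84.3% above 0, whereas for those between 2 and 4 the median was -0.06, with 39.9% above 0. Each storage gene is therefore set beside the genes within 0.5 log2 CPM of its own abundance. The median log2 of those genes was 0.06 for Lsm14a, 0.04 for Eif4e1b, 0.002 for Ybx2, -0.04 for Ddx6 and 0.009 for Patl2. For the other storage genes it is given with the gene. Fold changes are the log2 of SN over NSN, each with its standard error (SE), and the levels across the classes are CPM after TMM scaling, the default scaling of edgeR.

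**Figure D2:**
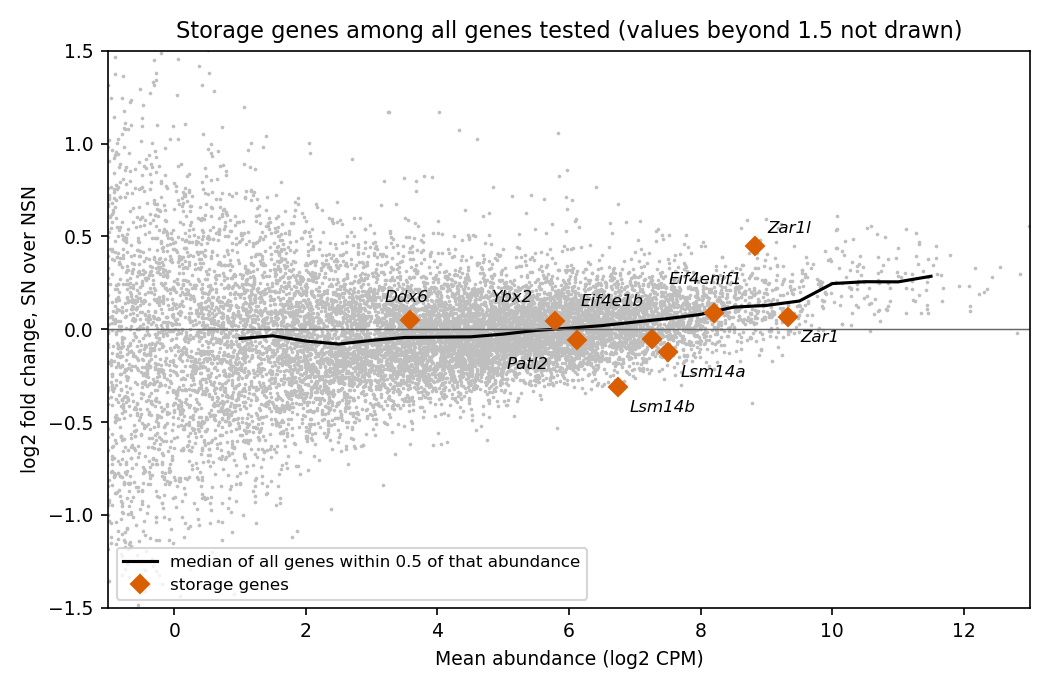
Log2 fold change of SN over NSN against mean abundance in log2 CPM for all genes tested (grey), with the storage genes as diamonds and the running median of all genes as a line. Zar1l (0.45) lies above the line and Lsm14b (-0.31) below it, and the other 7 genes lie between -0.12 and 0.09.

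Zar1l, the paralog of Zar1, gave the largest estimate of the set. It was at 589.3 and 454.0 CPM in SN replicates 1 and 2, against 430.2 and 334.0 CPM in NSN replicates 1 and 2. Both SN libraries lay above both NSN libraries, but SN replicate 2 and NSN replicate 1 were close. The means were 521.7 ± 95.6 CPM in SN and 382.1 ± 68.0 CPM in NSN (SD, n = 2 each), a log2 of 0.45 (SE 0.15, edgeR adjusted p = 0.662, 95% interval 0.11 to 0.79). The 271 genes of like abundance had a median log2 of 0.13. DESeq2 gave Zar1l an adjusted p of 0.0425. Of the 47 genes that DESeq2 called, 46 were higher in SN and 1 was lower. Without SN replicate 2, which leaves SN replicate 1 alone in its class, the log2 was 0.63 and edgeR called the gene (adjusted p = 0.0056), as it then did 2.09% of all genes. Without NSN replicate 1 the log2 was 0.64, without NSN replicate 2 it was 0.28 and without SN replicate 1 it was 0.25, and none of these was called (edgeR adjusted p = 0.391 to 0.974). Those fits called 0.0144%, 0.0143% and 0.194% of all genes in that order. The gene lies on chromosome 5 at 150507055 to 150518194 (GRCm38.p6).

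Zar1, whose protein name stands for zygote arrest, did not separate the classes. It was at 725.9 and 583.7 CPM in SN and 644.2 and 606.3 CPM in NSN, so that the SN libraries enclosed the NSN libraries. The log2 was 0.07 (SE 0.13, edgeR adjusted p = 0.927, 95% interval -0.23 to 0.36), below the median of 0.14 of the 179 genes of like abundance. Its sign turned with library size alone, with cyclic loess, on TPM and without SN replicate 1. Zar1 lies on chromosome 5 at 72577113 to 72581361, far from Zar1l on the same chromosome. RSEM divides a read that fits both paralogs between them by likelihood, and that error is in no test here.

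The ratio of the paralogs does not depend on how libraries are scaled. Zar1l took 54.3% and 53.3% of the summed TPM of Zar1 and Zar1l in SN, against 49.4% and 44.6% in NSN. The NSN libraries differed from each other by more than the SN libraries did, and the classes did not overlap. The mean share was 53.8% ± 0.699 in SN and 47.0% ± 3.35 in NSN (SD, n = 2 each), a difference of 6.77 percentage points. An exact two-sided permutation test gave p = 0.333, the smallest that 2 libraries against 2 can reach. That difference ran from 4.4 without NSN replicate 2 to 9.14 without NSN replicate 1.

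Lsm14b, which partners DDX6 in the repressed particles, gave the lowest estimate. It was at 103.1 and 87.0 CPM in SN, against 118.4 and 117.7 CPM in NSN. The NSN libraries were nearly equal and both lay above both SN libraries. The means were 95.1 ± 11.4 CPM in SN and 118.1 ± 0.484 CPM in NSN (SD, n = 2 each), a log2 of -0.31 (SE 0.10, edgeR adjusted p = 0.662, 95% interval -0.54 to -0.09). The 1207 genes of like abundance had a median log2 of 0.03. The estimate stayed below 0 under each of 14 alternatives, between -0.49 and -0.19, and was called under none of them, though DESeq2 gave it no adjusted p. Leaving out SN replicate 2 gave -0.19, and leaving out SN replicate 1 gave -0.43. Lsm14b lies on chromosome 2 at 180024900 to 180035466.

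Lsm14a, the paralog found in most cell types, was at 177.7 and 167.9 CPM in SN and 179.4 and 197.1 CPM in NSN. Both SN libraries were lower, though SN replicate 1 and NSN replicate 1 nearly met. The log2 was -0.12 (SE 0.10, edgeR adjusted p = 0.777, 95% interval -0.34 to 0.09). In TPM, Lsm14b made up 39.0% and 36.3% of the LSM14 pair in SN and 41.8% and 39.3% in NSN. The difference of class means was -2.87 percentage points (exact permutation p = 0.333), and the lowest NSN library was only just above the highest SN library. Leaving out SN replicate 2 made it -1.51, and leaving out NSN replicate 1 made it -1.65.

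Neither gene on the cap-binding side of the complex passed the test. Eif4enif1, whose product 4E-T carries eIF4E into repressed particles and keeps it from the initiation complex, was at 315.4 and 292.2 CPM in SN and 282.5 and 289.0 CPM in NSN. Both SN libraries lay above both NSN libraries, with SN replicate 2 only just above NSN replicate 2. The log2 was 0.09 (SE 0.10, edgeR adjusted p = 0.862, 95% interval -0.14 to 0.31), beside a median of 0.09 for the 481 genes of like abundance. Eif4e1b was at 145.2 and 155.1 CPM in SN and 151.7 and 160.2 CPM in NSN, so the classes overlapped (log2 -0.05, SE 0.09, edgeR adjusted p = 0.912, 95% interval -0.26 to 0.15). The sign for Eif4enif1 turned with library size alone, with cyclic loess and on TPM.

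Eif4e, the general cap-binding protein that translation initiation uses, was more abundant than the oocyte form. Its level was 367.0 and 435.1 TPM in SN and 372.4 and 371.7 TPM in NSN, against 104.1 and 127.4 TPM in SN and 125.7 and 145.9 TPM in NSN for Eif4e1b. In CPM, Eif4e was at 544.6 and 560.4 in SN and 479.0 and 439.3 in NSN (log2 0.27, SE 0.11, edgeR adjusted p = 0.662). The 244 genes of like abundance to Eif4e had a median log2 of 0.13, with 84% above 0. With cyclic loess the Eif4e estimate was 0.13, and on log2(TPM + 1) it was 0.10. Eif4e1b took 22.1% and 22.6% of the pair's TPM in SN, against 25.2% and 28.2% in NSN. The classes did not overlap in this share, and its difference was -4.34 percentage points (exact permutation p = 0.333), from -5.82 without NSN replicate 1 to -2.86 without NSN replicate 2.

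**Figure D3:**
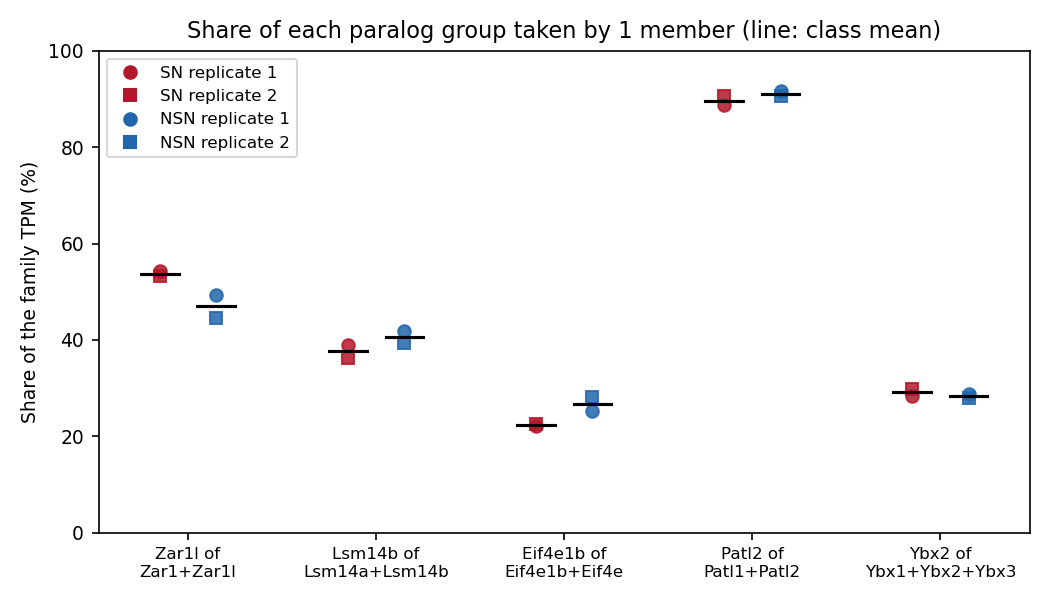
Share of the summed TPM of each paralog group taken by 1 member, in percent, with 1 point per library (SN left, NSN right) and a line at the class mean. The Zar1l share is 53.8% in SN and 47.0% in NSN on average, and the Ybx2 share overlaps between the classes.

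Ybx2, which packages messages and slows their decay, was at 57.1 and 54.6 CPM in SN and 55.8 and 52.5 CPM in NSN. The libraries interleaved, and the log2 was 0.04 (SE 0.10, edgeR adjusted p = 0.938, 95% interval -0.17 to 0.26). Its sign turned with library size alone and on TPM. Among the Y-box genes, Ybx2 took 28.5% and 29.8% of the TPM in SN and 28.9% and 28.0% in NSN, while Ybx3 was the most abundant of the 3 at 97.0 and 103.0 TPM in SN and 116.1 and 126.7 TPM in NSN. The mean Ybx2 shares differed by 0.638 percentage points (exact permutation p = 0.667), and by -0.0123 without SN replicate 2. Ybx1, the broadly expressed member, was at 84.4 and 72.5 CPM in SN and 66.8 and 64.5 CPM in NSN (log2 0.26, SE 0.10, edgeR adjusted p = 0.662).

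Ddx6 was the rarest of the set. It had 344 and 511 estimated counts in SN and 383 and 413 in NSN, or 10.4 and 13.7 CPM in SN and 11.5 and 11.8 CPM in NSN. The SN libraries enclosed the NSN libraries, and the log2 was 0.05 (SE 0.17, edgeR adjusted p = 0.963, 95% interval -0.32 to 0.41). Its sign turned with library size alone, on TPM and without SN replicate 2.

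Patl2, whose human gene is mutated in a form of infertility with immature oocytes, was at 64.0 and 72.3 CPM in SN and 72.7 and 69.0 CPM in NSN. The classes overlapped in the summed counts (log2 -0.06, SE 0.10, edgeR adjusted p = 0.916, 95% interval -0.27 to 0.16). In TPM it was at 38.8 and 49.8 in SN and 53.7 and 56.0 in NSN, and on the log2(TPM + 1) scale the estimate was -0.31 (limma adjusted p = 0.566). Patl1, its paralog, was far rarer at 4.97 and 5.21 TPM in SN and 4.92 and 5.78 TPM in NSN. Patl2 took 88.7% and 90.5% of the pair in SN and 91.6% and 90.6% in NSN, a difference of -1.53 percentage points (exact permutation p = 0.333). Leaving out SN replicate 1 made it -0.597, and with SN replicate 2 left out it was -2.47. In shares of estimated counts the classes overlapped (difference -1.75 percentage points, exact permutation p = 0.667).

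**Figure D4:**
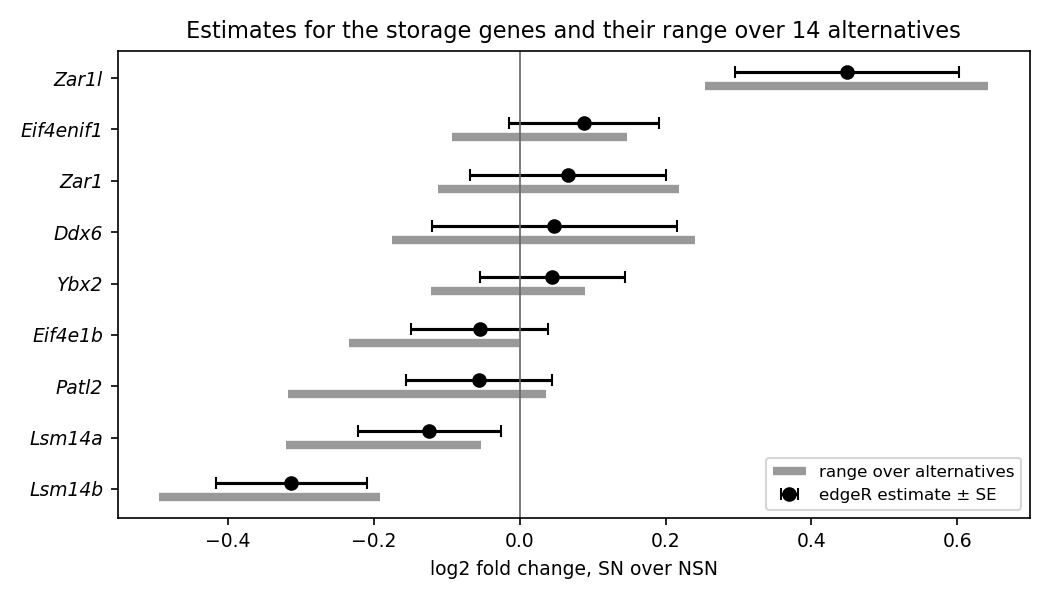
Log2 fold change of SN over NSN for each storage gene, as the edgeR estimate with its SE (points and bars) and as the range over 14 alternative settings (grey). Zar1l stays between 0.25 and 0.64 and Lsm14b between -0.49 and -0.19, whereas the ranges of Zar1, Eif4enif1, Ddx6, Ybx2 and Patl2 cross 0.

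Patl2 has 3 models in the deposited table: 1 curated (NM_026251.2) and 2 predicted (XM_006500086.4 and XM_017319224.2). XM_006500086.4 has 0.718 times the effective length of XM_017319224.2, so a given number of reads weighs more in TPM when assigned to it. XM_006500086.4 was at 13.3 and 14.6 TPM in SN, against 26.6 and 28.3 TPM in NSN. Its replicates were close in both classes and the classes lay far apart. XM_017319224.2 was at 24.2 and 33.3 TPM in SN and 26.0 and 24.1 TPM in NSN, so here the classes overlapped.

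As a share of Patl2 TPM, XM_006500086.4 made up 34.2% and 29.3% in SN, against 49.5% and 50.6% in NSN. XM_017319224.2 made up 62.3% and 66.8% in SN, against 48.4% and 43.0% in NSN. By TPM, XM_017319224.2 was thus ahead in both SN libraries and XM_006500086.4 in both NSN libraries. By estimated counts XM_017319224.2 was ahead in all 4 libraries, and XM_006500086.4 held 27.1% and 22.9% of Patl2 counts in SN, against 41.3% and 42.2% in NSN. NM_026251.2 held between 2.14% and 6.43%. In the test over transcripts, XM_006500086.4 had a log2 of -0.82 (SE 0.11, edgeR adjusted p = 0.696), with a range of -0.95 to -0.79 over its alternatives. DESeq2 gave it an adjusted p of 6.43e-11, and the authors' deposited table gives a log2 ratio of -0.81 with an unadjusted p of 6.74e-12. The authors' comparison is of the same 4 libraries, so it is no separate evidence. The test of shares within the gene did not call Patl2 (edgeR diffSpliceDGE, Simes adjusted p = 1). It called 0 of the 9 storage genes, against 0.429% of the 7000 genes it could test, and 1 of them, Lsm14a, was under an unadjusted p of 0.05, against 7.06% of those genes. The call of a single model turned on the tool, and neither tool was reliable for single models in the check on simulated data. The share test recovered hardly any of the changed genes in that check, so a missing call from it decides nothing. The error of RSEM's assignment of reads to overlapping models enters none of these tests.

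**Figure D5:**
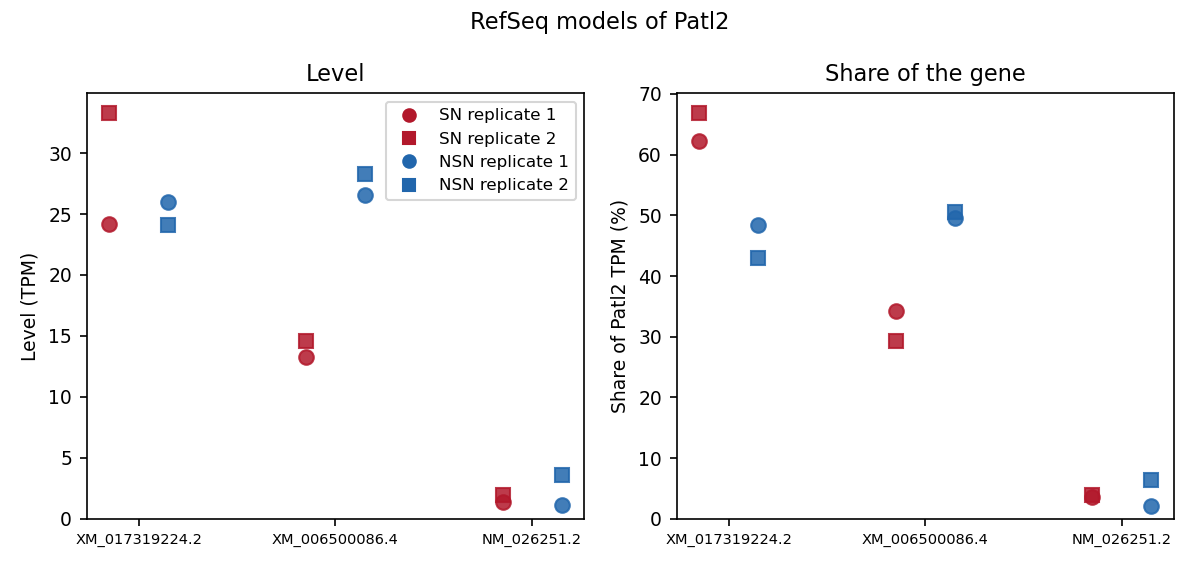
Level in TPM (left panel) and share of the Patl2 total in percent (right panel) of its 3 RefSeq models, with 1 point per library (SN left, NSN right). XM_006500086.4 is at 13.3 and 14.6 TPM in SN and at 26.6 and 28.3 TPM in NSN.

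Other storage genes also had several models, 40 in all, of which 20 are curated and 20 predicted. A single model dominated Zar1 (96.9% to 97.3% of the TPM over the 4 libraries), Ybx2 (94.2% to 97.4%) and Lsm14b (91.9% to 97.0%). Zar1l was led by the curated NM_001159693.2, at 69.0% and 69.8% in SN and 70.7% and 71.0% in NSN. Its leading models gave like estimates: NM_001159693.2 had a log2 of 0.40 (SE 0.19, edgeR adjusted p = 0.942) and XM_011241026.2 a log2 of 0.50 (SE 0.21, edgeR adjusted p = 0.876). Eif4e1b was the most divided, with its leading model at 38.9% and 57.7% in SN and 50.3% and 56.7% in NSN. The SN libraries of Eif4e1b differed from each other by more than the class means did.

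Of the models past the filter, a pair was listed at 0 in both NSN libraries. They were picked for those zeros and passed the filter only through their SN counts. A higher level in SN was thus fixed by the choice, and the bounds and p-values given here are no support for a class difference. How many of all models were at 0 in both libraries of a class was not counted. XM_030242918.1 of Lsm14a had 49.8 and 204.4 estimated counts in SN and 0 and 0 in NSN, at least 37.2-fold higher in SN when NSN is set at the floor of 3 counts per library (edgeR adjusted p = 0.696; DESeq2 adjusted p = 2.89e-05). SN replicate 2 carries that bound, which is 14.5-fold from SN replicate 1 alone and 59.8-fold from SN replicate 2 alone. It made up 0.722% and 2.79% of Lsm14a TPM in SN. NM_007841.4 of Ddx6 had 21.8 and 25.1 estimated counts in SN and 0 and 0 in NSN, at least 6.86-fold higher (edgeR adjusted p = 0.696; DESeq2 adjusted p = 0.0192). The part of read assignment among models in these zeros was not tested. The share test called neither gene (Simes adjusted p = 0.323 for Lsm14a and 1 for Ddx6), and a missing call from it decides nothing.

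Over the 34 storage gene models past the filter, edgeR called 0 at an adjusted p of 0.05, against 0% of all 29835 models tested. At an unadjusted p under 0.05 it had 4 of the 34 (11.8%), against 6.47% of all. DESeq2 called 3 of the 34 (8.82%), against 4.93% of all, namely XM_006500086.4, XM_030242918.1 and NM_007841.4. In the authors' deposited table, 10 of the 38 storage gene models with a p-value were under 0.05, against 8.36% of all models. Those 10 included models of Zar1l, Lsm14b, Lsm14a, Patl2, Eif4enif1 and Ddx6, and models of a gene share reads.

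Genes that work beside the storage proteins were tested in the same comparison. Of 8 cap-binding genes and eIF4E regulators, 3 had a log2 above 0 and 0 passed. Their classes did not overlap for 1 gene higher in SN (18.3% of all genes) and 2 lower in SN (20.7% of all genes). The one with the smallest p after Eif4e was Eif4ebp3, an inhibitory eIF4E-binding protein, at 3.2 and 3.87 CPM in SN and 5.21 and 4.86 CPM in NSN (log2 -0.51, SE 0.24, edgeR adjusted p = 0.662). Of 8 decapping and P-body genes, 3 had a log2 above 0 and 0 passed. Without overlap of the classes, 0 of these were higher in SN and 2 lower, against the same shares of all genes. Edc4, a scaffold of the decapping enzyme, was at 94.2 and 89.4 CPM in SN and 99.6 and 104.5 CPM in NSN (log2 -0.15, SE 0.09, edgeR adjusted p = 0.725). Dcp2, the decapping enzyme itself, had overlapping classes (log2 0.14, SE 0.11, edgeR adjusted p = 0.773).

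The RNA-packaging and polyadenylation lists gave 0 calls as well. Of 14 Y-box and RNA particle genes, 4 had a log2 above 0, with a median of -0.05, and 9 had classes that did not overlap (2 higher in SN, against 18.3% of all genes, and 7 lower in SN, against 20.7% of all genes). Those shares are over genes of every abundance, with a median of 3.68 on the log2 CPM scale, against 6.21 for this list. No such share was taken for genes of like abundance. Fxr1, a relative of the fragile X protein, was at 198.7 and 202.3 CPM in SN and 171.9 and 184.3 CPM in NSN (log2 0.17, SE 0.10, edgeR adjusted p = 0.71). Of 12 genes for CPEB proteins, Pumilio proteins and the poly(A) tail, 4 had a log2 above 0, with a median of -0.10. Here 2 were higher and 3 lower in SN without overlap of the classes, against 18.3% and 20.7% of all genes. Pum2, which represses messages through their 3′ untranslated regions, was at 101.5 and 99.97 CPM in SN and 109.3 and 119.0 CPM in NSN (log2 -0.18, SE 0.09, edgeR adjusted p = 0.702).

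Levels were also read for 12 messages known to lie dormant in oocytes, such as Mos, Plat and Ccnb1, with Dcp2 among them too. Whether the storage proteins bound these messages here was not measured. None passed the edgeR test. Of the 12, 9 had a log2 above 0 and 7 had both SN libraries above both NSN libraries, against 18.3% of all genes. The latter share is over genes of every abundance, with a median of 3.68 on the log2 CPM scale. No such share was taken for genes as abundant as these messages. The messages had a median log2 of 0.15 at a median abundance of 8.69 on that scale. All genes between 8 and 10 there had a median log2 of 0.13, with 84.3% above 0. Orc6, a subunit of the origin recognition complex, was at 259.6 and 233.2 CPM in SN and 212.5 and 184.4 CPM in NSN (log2 0.31, SE 0.11, edgeR adjusted p = 0.662). Btg4, which recruits the deadenylase that clears maternal messages, was at 2383 and 2097 CPM in SN and 1807 and 1804 CPM in NSN. Its log2 was 0.31 (SE 0.15, edgeR adjusted p = 0.676, DESeq2 adjusted p = 0.0498). The 58 genes of like abundance to Btg4 had a median log2 of 0.25, with 98.3% above 0.

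Likeness to Zar1 was measured as the largest difference over the 4 libraries in log2 CPM centred per gene. Of 8467 genes compared, the nearest were Spag5 (0.00437), Mydgf (0.0172) and Cnot10 (0.0202). With 4 libraries, 42 of the 8467 genes came within 0.05 of Zar1, so a match that close was not particular to the genes named.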

How the data were processed

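The authors deposited 1 table of RefSeq transcript models with estimated counts, TPM and their own comparison of SN with NSN, per the file headers: for each model a log2 ratio with a p-value not adjusted for multiple tests, whose tool is not given in the sources used here. Per the submitters' processing notes, HISAT2, Bowtie2, RSEM and the build mm10 were used; no version or role is given there. The deposited estimated counts are not whole in 59.8% of cells, and the authors' TPM sums to 999980 to 999983 per library. Another 8 columns of values per library and 8 class averages were not used here.

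Estimated counts were summed per gene ID and rounded. Genes were kept by filterByExpr of edgeR 4.0.16 (R 4.3.3), which left 13426 genes, scaled by TMM and tested with glmQLFTest (robust), with Benjamini-Hochberg adjustment over all of them; transcripts (29835) likewise, and shares within genes with diffSpliceDGE. SE was taken from the F statistic. Alternatives used DESeq2 1.42.0, limma 3.58.1, other scalings, TPM and left-out libraries. Shares of paralogs were tested with scipy 1.17.1. The tests were checked on simulated data. The gene test recovered most genes changed at the larger folds. Every simulated fold was larger than that of any storage gene in the main gene test, so the check does not cover changes that small. The edgeR transcript test recovered none of the changed models, and the share test recovered hardly any of the changed genes. Most transcripts DESeq2 called were unchanged ones. Single models of Patl2, Lsm14a and Ddx6, and their alternatives, were chosen after seeing the data. A floor of 3 counts is 0.081 to 0.0929 CPM, and floors cover counting error only, since PCR copies are not independent molecules. Locations and promoters are RefSeq's for GRCm38.p6, the assembly mm10 names.

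Named genes were the 9 members, the paralogs in the shares, the 2 genes with the smallest p in each list, markers, and the 3 genes most like Zar1 with at least 5 CPM. The members, lists and tests were chosen with earlier results of these data known. One gene that this rule names is not reported here.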

Additional observations from a re-analysis of the deposited data

How the results depend on the processing

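Over 14 alternatives per storage gene, 96 of 126 values kept both the direction and the side of the threshold, 6 kept the direction with no adjusted p from DESeq2, 21 turned in sign and 3 passed the threshold. Zar1l was the gene that passed, by DESeq2 (0.463), without SN replicate 2 and with the replicate block (log2 0.448, edgeR adjusted p = 0.0431). Nothing in the labels makes the numbers a pairing, and over genes same-numbered deviations from the class means correlated at 0.029. Among the other named genes carried through the alternatives, the block changed no call, whereas over all genes tested it called 44. With library size alone, where the median of all genes shifted by -0.143, the log2 was -0.085 for Zar1, -0.0993 for Ybx2, -0.0858 for Ddx6, -0.0584 for Eif4enif1, -0.0393 for Patl1 and -0.00922 for Dcp2. On log2(TPM + 1), with a shift of -0.12 (-0.0727 without a TPM filter), they were -0.113, -0.12, -0.141, -0.0922, -0.0573 and -0.0407 with or without that filter. On log2(TPM + 0.1), with a shift of -0.168, they were -0.113, -0.122, -0.175, -0.0929, -0.0664 and -0.0443. With cyclic loess Zar1 was at -0.0946 and Eif4enif1 at -0.0147. Without 1 library, Zar1 ranged from -0.0931 to 0.219, Ddx6 from -0.166 to 0.241 and Patl2 from -0.144 to 0.0364. The difference of the Ybx2 share ranged from -0.0123 to 1.29. Of the other genes named, Btg4 was called by DESeq2 and Oosp1 (log2 0.69) without SN replicate 2; the cause was not tested.

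Genes called numbered 0 in the main test, with RLE size factors, with cyclic loess, by limma-voom and on log2(TPM + 1) with no TPM filter. They numbered 15 with library size alone, 47 by DESeq2, 15 with no low-count filter, 47 on log2(TPM + 1), 45 on log2(TPM + 0.1), 44 with the replicate block, and from 2 to 289 with a library left out. Transcripts called numbered 0 in each edgeR setting and 1471 by DESeq2. Genes called for model shares numbered 30, 14 with no low-count filter, 2 with the replicate block and 0 to 14 with a library left out. With 2 libraries per class, the 95% intervals of the storage genes reach from -0.54 (Lsm14b) to 0.79 (Zar1l) in log2.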
